A study of Mus musculus with 8 samples.

Results

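Nuclear genes of the mitochondrial respiratory chain (Ndufa4, Ndufa5, Ndufb6, Ndufaf6 and Cox6c) and Nrf1, a transcription factor that controls many genes of this kind, were followed in mouse liver RNA. The genes were chosen by name, as 6 of the 55416 rows of the count table, and because they lie on 3 stretches of the GRCm38 genome where row names fit the counts: chromosome 4 from 3.8 to 62.4 Mb, chromosome 6 from 3.5 to 30.9 Mb and chromosome 15 from 8.1 to 35.9 Mb. Livers came from Sost-/- and SostPB/- mice, 4 libraries each, numbered as biological replicates. Every mouse was on the MCD diet, in the usual sense of this field a diet lacking methionine and choline that brings on steatohepatitis, and both genotype names carry a "-" allele of Sost. The product of Sost, sclerostin, is known for blocking Wnt signals in bone, and the question of the series is what overexpression of Sost does in this disease. What PB stands for and which group overexpresses Sost is unknown here, as are age, sex and strain (not given in the sources used here). There was no group on a normal diet among the samples. The row of Sost lies off the stretches, so its level is not analysed here.

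The respiratory chain passes electrons from NADH and succinate to oxygen and stores the energy as a proton gradient across the inner mitochondrial membrane. Complex I takes electrons from NADH, and complex IV, cytochrome c oxidase, hands them to oxygen. Most subunits of both are encoded in the nucleus, while a core is encoded in mitochondrial DNA, so that each complex is built from 2 genomes. Hepatocytes are rich in mitochondria and use the chain to burn fatty acids, the fuel that accumulates in steatohepatitis.

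Libraries held 9578086 to 14932773 counts, of which 47.4% to 59.2% in Sost-/- and 54.7% to 64.3% in SostPB/- were mitochondrial. Hepatocyte markers on the stretches were present in every library. In counts per 1000000 of all counts, the ranges in Sost-/- and then SostPB/- were 1807 to 1952 and 1510.4 to 1909 for Pon1, 287 to 1134 and 352 to 1121 for Cyp7a1, 352 to 667 and 375 to 466 for Baat, 151 to 249 and 168 to 219 for Agxt2, and 239 to 459.5 and 186 to 319 for Grhpr. Aass, of lysine breakdown, did not overlap between the groups, with 1158 to 1464 in Sost-/- and 772 to 932 in SostPB/-. On the scaled CPM used below it did not overlap either, as in 3.92% of all rows tested and 4.12% of those on the stretches. It did not pass the edgeR test described below (edgeR adjusted p = 0.687). Of the other cell types, T cell Il7r had 56.3 to 99.8 in Sost-/- and 32.9 to 67.4 in SostPB/-, and myeloid Irf5 38.8 to 74.1 and 35.2 to 57.4. The fibroblast markers Col1a2 and Reck summed to 94.1 to 200.1 on the same scale in Sost-/- and 102 to 164 in SostPB/-. The endothelial, B cell, adipocyte, muscle and cholangiocyte sums were at most 27.6 in every library, and of these markers Lep, with erythroid Hemgn, was at 0 throughout. These marker ranges are shares of all counts, mitochondrial ones included. On library totals alone the median row tested was itself lower in SostPB/- (log2 fold change -0.21). Apart from Aass, the ranges were not compared on the scaled CPM. The part of these cell types in the results was not tested. In bulk liver, fewer cells of a type and less RNA per cell cannot be told apart. Of protein-coding rows named for the nuclear respiratory chain, 7 of 7 on the stretches had a mean of at least 100 counts, against 14 of 104 (13.5%) elsewhere. Genes of this chain were among those used to find the stretches, so this contrast restates how they were found. Of the other protein-coding rows, 54.8% and 15.3% reached that mean.

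Because Nrf1 is known for binding GC-rich promoter sites, the start sites of the genes were read for the letters GCGCATGC, taken from the core of the known NRF1 palindrome, on both strands. RefSeq (GRCm38.p6) held windows from 250 bases before to 50 after a start for 4 of the 6 genes, 6 windows in all. Ndufaf6 and Cox6c had none in this table. The exact letters were in 0 of the 6 windows, beside 2.71% of 32851 windows of all genes. With 1 mismatch allowed they were in 3 of 6, the Ndufb6 window and both overlapping Ndufa5 windows, beside 19.7% of all windows. The 2 Ndufa5 windows hold the same site. The matching windows held 15 to 21 CG pairs and the others 2 to 43, beside a median of 7 over all windows. The 19.7% was not matched for such content, so no enrichment is read from it. The Ndufb6 and Ndufa5 windows printed below each hold a match on each strand, and the 2 matches overlap. Such a match is a run of letters and not a shown binding site. The windows of Ndufb6 and Ndufa5 are printed with matches at 1 mismatch in capitals, beside that of Ndufa4, the most abundant of these transcripts, which holds none. All run 5′ to 3′ on the strand of the gene.
Ndufb6, chr4:40279372-40279671, minus strand: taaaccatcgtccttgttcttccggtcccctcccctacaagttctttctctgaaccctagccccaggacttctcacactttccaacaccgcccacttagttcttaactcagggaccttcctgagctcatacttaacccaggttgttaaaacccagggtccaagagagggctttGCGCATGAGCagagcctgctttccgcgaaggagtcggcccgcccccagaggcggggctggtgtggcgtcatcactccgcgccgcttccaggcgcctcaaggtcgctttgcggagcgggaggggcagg
Ndufa5, chr6:24527641-24527940, minus strand: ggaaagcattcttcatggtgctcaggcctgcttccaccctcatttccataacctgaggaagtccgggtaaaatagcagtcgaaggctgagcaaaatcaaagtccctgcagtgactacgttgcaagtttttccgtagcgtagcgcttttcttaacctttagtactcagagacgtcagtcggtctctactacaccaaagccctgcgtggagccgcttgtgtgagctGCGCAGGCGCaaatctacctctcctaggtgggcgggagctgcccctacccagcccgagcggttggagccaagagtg
Ndufa4, chr6:11907401-11907700, minus strand: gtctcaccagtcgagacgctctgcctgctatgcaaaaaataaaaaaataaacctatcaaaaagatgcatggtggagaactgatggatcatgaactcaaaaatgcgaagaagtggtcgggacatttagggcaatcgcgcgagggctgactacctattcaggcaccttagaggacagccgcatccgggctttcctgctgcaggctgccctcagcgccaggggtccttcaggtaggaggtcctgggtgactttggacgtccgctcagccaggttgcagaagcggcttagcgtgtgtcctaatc

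None of the 6 genes passed the test of a difference between the genotypes. The largest difference relative to its error was that of Nrf1, whose mean was 36.8 ± 4.68 CPM for Sost-/- against 28.6 ± 2.38 CPM for SostPB/- (SD, n = 4). For all 6 the groups overlapped. In edgeR's quasi-likelihood test 0 of 6 passed an adjusted p of 0.05, beside 0.0% of 10020 rows tested, and DESeq2 and limma-voom also called 0 of the 6. Over all rows DESeq2 called 52 and limma-voom 1. At an unadjusted p under 0.05 edgeR had 1 of the 6, Nrf1, beside 646 rows or 6.45% (3.46% lower in SostPB/-). Among the 461 rows tested on the stretches 0.0% were called, 8.24% had such a p, and 4.56% had it with the lower level in SostPB/-. Of the log2 fold changes (SostPB/- over Sost-/-) 5 were below 0 and 1 was above, beside 51.2% below 0 over all rows and 51.8% over stretch rows. The median of the 6 was -0.16, and that of all rows was -0.010. All 6 passed the filter on low counts. Levels below are CPM, counts per 1000000 counts scaled by TMM, a method that sets libraries to a common size from the bulk of their genes.

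Ndufa4 was long counted to complex I and is now known as a subunit of complex IV (ENSMUSG00000029632, chromosome 6, 11900292 to 11907497, minus strand). In Sost-/- replicates 1 to 4 its level was 496, 453, 834 and 558 CPM. The 4 SostPB/- libraries, in the same order of numbers, had 567, 562, 419 and 460.2 CPM. Sost-/- replicate 3 stood highest, and the other 3 Sost-/- libraries lay within the range of SostPB/-. The means were 585 ± 172 and 502 ± 74.1 CPM (SD, n = 4). On the log2 scale the change was -0.22 (SE 0.21), with an adjusted p of 0.958 by edgeR. Without Sost-/- replicate 3 it was -0.00040.

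Cox6c, a small structural subunit of complex IV (ENSMUSG00000014313, chromosome 15, 35925886 to 35938246, minus strand), lies at the very end of its stretch. It starts just past the printed end of 35.9 Mb and was counted as inside because the printed ends are rounded. Its levels were 206, 177, 272 and 199.97 CPM in Sost-/- and 250.4, 213, 156 and 179 CPM in SostPB/-. Here too Sost-/- replicate 3 was highest and SostPB/- replicate 3 lowest, with groups that overlapped. The means were 213 ± 40.8 and 199.7 ± 41.2 CPM (SD, n = 4). The log2 change was -0.096 (SE 0.19), and edgeR gave an adjusted p of 0.981; it was 0.042 without Sost-/- replicate 3 and 0.0039 without SostPB/- replicate 3. Its exons overlap 250 bases of the exons of Vps13b on the other strand, whose row had a mean of 1713 counts against 2345 for Cox6c, and nothing says whether counting used the strand.

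Ndufb6, an accessory subunit of the membrane arm of complex I (ENSMUSG00000071014, chromosome 4, 40270591 to 40279421, minus strand), had 64.8, 62.0, 96.3 and 66.3 CPM in Sost-/- and 91.0, 74.5, 57.2 and 50.4 CPM in SostPB/-. The 3 lower Sost-/- libraries lay close together, while SostPB/- reached from below them to above them. The means were 72.4 ± 16.1 and 68.3 ± 18.2 CPM (SD, n = 4). On the log2 scale this was -0.084 (SE 0.22), with an adjusted p of 0.986 by edgeR. It was 0.085 without Sost-/- replicate 3 and 0.036 without SostPB/- replicate 4. It shares 257 exon bases with Smim27 on the other strand, whose row had a mean of 38.1 counts against 797 for Ndufb6.

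Ndufa5, an accessory subunit of complex I near its NADH-oxidising arm (ENSMUSG00000023089, chromosome 6, 24518666 to 24528013, minus strand), had a 0 in 1 library. Its raw counts in Sost-/- were 1593, 1028, 2042 and 1561, and in SostPB/- 1537, 0, 1125 and 1436, by replicate number. In CPM these were 120.1, 89.3, 173 and 134 against 156, 0, 131 and 144. The 0 lay in a library of 14613316 counts, where counting error allows up to 3 counts or 0.222 CPM. Ndufa4, Ndufb6 and Cox6c lay inside the range of their own group there. The second deposited table, which holds the same counts divided by a size factor, had a 0 there too. Among rows averaging 1000 counts or more, Ndufa5 was the 1 of 175 on the stretches with a 0 in exactly 1 library, and the whole table had 2 of 872. Whether the 0 is a level in that liver or a failed estimate was not tested. With it, the log2 fold change was -0.26 with an SE of 1.00 (edgeR adjusted p = 0.989), and without SostPB/- replicate 2 it was 0.16 with an SE of 0.22 (edgeR adjusted p = 0.972). The mean of the 3 remaining SostPB/- libraries was 144 ± 12.8 CPM, against 129 ± 34.7 CPM in the 4 of Sost-/-.

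Ndufaf6 is a factor needed to assemble complex I and no part of the finished enzyme (ENSMUSG00000050323, chromosome 4, 11051045 to 11076205, minus strand). It had 71.5, 37.2, 59.1 and 43.8 CPM in Sost-/- and 62.1, 50.9, 66.4 and 49.96 CPM in SostPB/-. The Sost-/- libraries held both the highest and the lowest value of the 8. The means were 52.9 ± 15.4 and 57.3 ± 8.19 CPM (SD, n = 4). The log2 change was 0.11 with an SE of 0.22, and the adjusted p of edgeR was 0.981. Without Sost-/- replicate 2 it was -0.020. With library totals alone as the scaling, which moved the median of all rows to -0.21, it was -0.058, or 0.15 above that median. A second complex I assembly factor on the stretches, Ndufaf4, named here after its values were seen, had 233 ± 37.4 and 233 ± 43.6 CPM (SD, n = 4), a log2 change of 0.0015 (SE 0.18).

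Nrf1 (ENSMUSG00000058440, chromosome 6, 30047988 to 30153458, plus strand) encodes nuclear respiratory factor 1. Its level was 31.7, 34.1, 41.3 and 40.3 CPM in Sost-/- and 31.95, 26.6, 28.6 and 27.3 CPM in SostPB/-. Of the SostPB/- libraries, 3 lay below every Sost-/- library, and SostPB/- replicate 1 lay just above Sost-/- replicate 1, so the groups overlapped. Among all rows tested the groups did not overlap in 3.92%, on the stretches in 4.12%, and among the 6 genes in 0. The log2 change was -0.37 with an SE of 0.16. The edgeR p was 0.0467 before adjustment and 0.767 after, and ranked 610 of 10020 rows. The unadjusted p was under 0.05 in 7 of 18 alternative settings, and in 2 of the 8 fits that left out a library, with a range from 0.0268 to 0.122 by edgeR, DESeq2 or limma-voom. The 7 include the fit of the second table's reads, which are the same counts and repeat the main fit. The exact two-sided permutation test of log2 CPM gave p = 0.0571, where 0.0286 is the smallest p that 4 against 4 can give. In the same exact test the p values of the other 5 genes ran from 0.543 to 0.743, none adjusted.

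**Figure D1:**
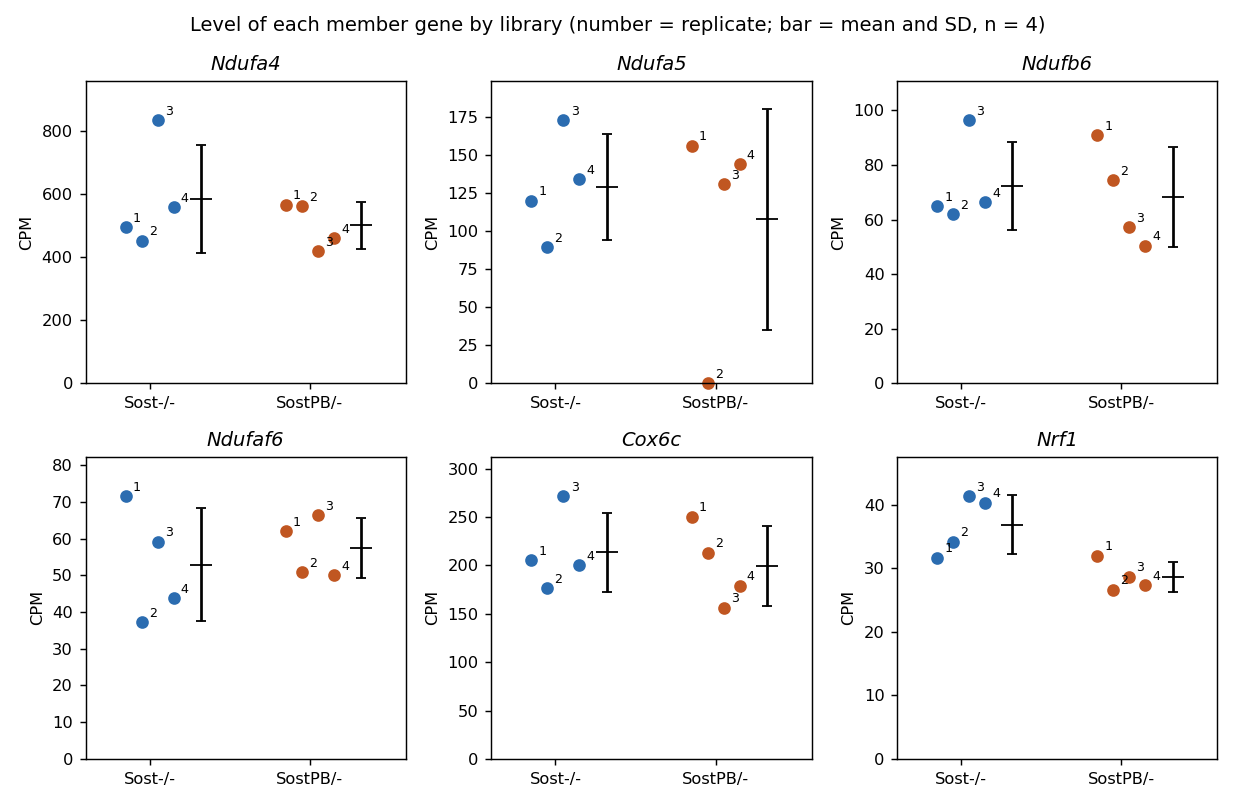
CPM (vertical axis, from 0) of the 6 genes in Sost-/- and SostPB/- libraries, with each point marked by its replicate number and bars for the mean and SD of 4 libraries. Ndufa5 is at 0 in SostPB/- replicate 2, and 3 of 4 SostPB/- values of Nrf1 lie below all those of Sost-/-.

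The subunits shared their highest libraries, which did not follow the genotypes. How many of all rows share these highest libraries was not counted, so the pattern cannot be called particular to the subunits. Ndufa4, Ndufa5, Ndufb6 and Cox6c were highest of all 8 libraries in Sost-/- replicate 3, and within SostPB/- all of them were highest in replicate 1, Ndufa4 by a narrow margin. Averaged over Ndufa4, Ndufb6 and Cox6c, log2 CPM was 0.52 above its mean in Sost-/- replicate 3 and 0.26 above in SostPB/- replicate 1, and stood at -0.33 and -0.28 in SostPB/- replicates 3 and 4. Ndufa5 was not low in those last libraries, with 131 and 144 CPM. Nrf1 was also highest in Sost-/- replicate 3 but was second highest in Sost-/- replicate 4, where that average was -0.0030. In CPM scaled by TMM the assembly factors differed from this. Ndufaf6 and Ndufaf4 were highest of the 8 in Sost-/- replicate 1, and highest of SostPB/- in replicate 3, where Ndufa4 and Cox6c were lowest. These libraries had the lowest TMM factors of their groups (0.891 and 0.828), and the order of Ndufaf6 rests on that scaling. As a share of library totals, Ndufaf6 was highest in Sost-/- replicate 3 and, within SostPB/-, in replicate 1, like the subunits. Ndufaf4 was then highest of SostPB/- in replicate 4. In Sost-/- it was then almost level in replicates 1 and 4 and not highest in replicate 3. Sost-/- replicate 3 had a mitochondrial share of 49.4% and the highest sums of the 8 for the fibroblast markers (200.1), the T cell marker Il7r (99.8) and the endothelial markers Cav1 and Wnt2 (27.6), on the scale of 1000000 counts. The adipocyte sum was highest there too (14.2). Myeloid Irf5 (74.1) and the B cell (19.8) and muscle (4.93) sums were highest in Sost-/- replicate 2, and cholangiocyte Cftr in SostPB/- replicate 4 (3.11). SostPB/- replicate 3 had the highest mitochondrial share, 64.3%. The part of these measures in the result was not tested.

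**Figure D2:**
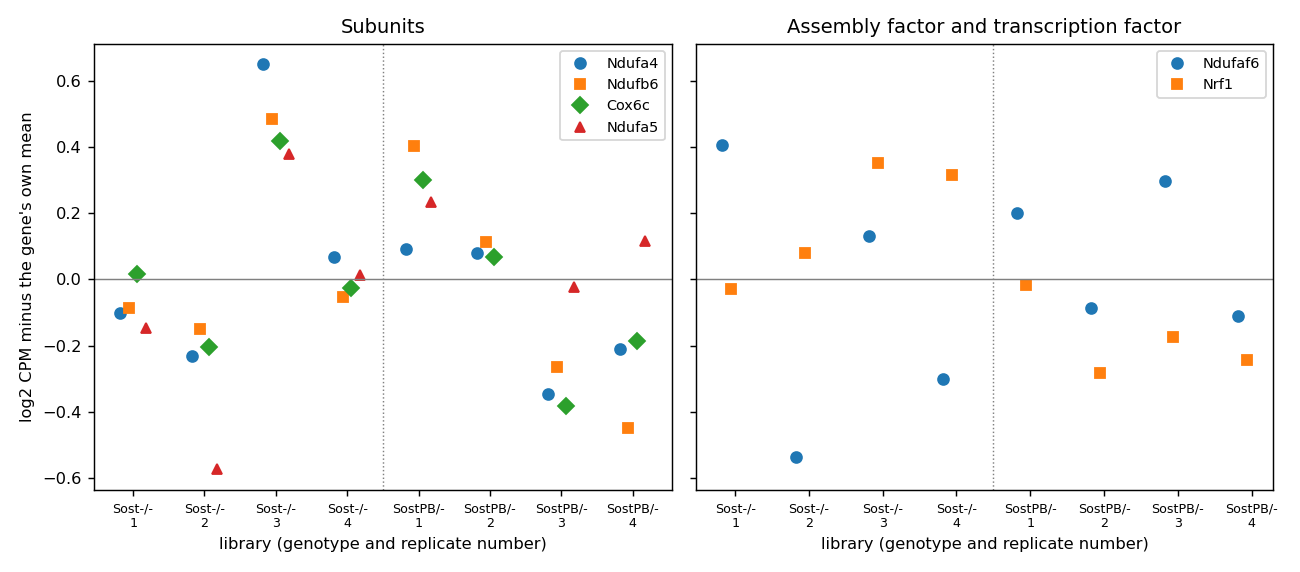
Log2 CPM of each gene minus its own mean (vertical axis) in each of the 8 libraries, with the subunits on the left and Ndufaf6 and Nrf1 on the right; Ndufa5 is centred on 7 libraries and its 0 is left out. The subunits peak in Sost-/- replicate 3, and Ndufa5 parts from the others in SostPB/- replicates 3 and 4, while Ndufaf6 is highest in Sost-/- replicate 1.

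The genes most like these on the stretches were sought among protein-coding rows averaging 50 counts or more, by the root mean square difference of centred log2 CPM over the 8 libraries. Nearest to Nrf1 among 331 rows were Creb3, a membrane-bound transcription factor (0.093), and Stoml2, a protein of the inner mitochondrial membrane (0.11), where the median row was at 0.35. Nearest to the mean of the 4 subunits were Sgce, Rad1 and Cplane1 (0.26 to 0.54), a choice led by the Ndufa5 value of 0. Without Ndufa5 the nearest were Sem1, a small proteasome subunit (0.12), Zfp622 (0.16) and the mitochondrial hydrolase Hint2 (0.16), with the median row at 0.39. In that ranking of 329 rows Nrf1 stood at place 26 (0.24) and Ndufaf6 at place 129 (0.36).

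Per kilobase of exon, Ndufa4 stood at 394 ± 94.3 CPM over all 8 libraries (SD), Ndufa5 at 115 ± 52.2, Ndufb6 at 107 ± 24.4, Cox6c at 57.9 ± 10.8, Ndufaf6 at 44.6 ± 9.46 and Nrf1 at 3.18 ± 0.544 CPM per kilobase. Ndufa4 was above Ndufa5, Ndufb6 above Cox6c and Ndufaf6 above Nrf1 in 8 of 8 libraries. Ndufa5 was above Ndufb6 in 6 of 8, and Cox6c above Ndufaf6 in 6 of 8, so neither of these neighbours is clearly ordered. Cox6c has 3567 annotated exon bases but 228 coding bases, and per kilobase of coding exon it moved to second place at 906 ± 169 CPM, below Ndufa4 at 2209 ± 529.

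Near-identical copies can take or lend reads. At 90% identity or more over at least 200 bases, Ndufa4 had 3 processed pseudogenes, whose rows held 0 counts, and Cox6c had 2, one with a mean of 3.88 counts and the other with 0. Those rows lie off the stretches, so their counts cannot be assigned to the copies. Ndufb6 matched Smim27, which overlaps it, and Ndufa5, Ndufaf6 and Nrf1 had none.

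The subunits encoded in mitochondrial DNA had log2 fold changes above 0 in 13 of 13 genes, where 51.2% of all rows were below 0, and edgeR called 0 of 13. Their median was 0.42. With library totals alone it was 0.23, where the median of all rows moved from -0.010 to -0.21. Of the 13, 6 had an unadjusted p under 0.05, beside 6.45% of all rows, and DESeq2 and limma-voom called 0. Without Sost-/- replicate 1 edgeR called 1, mt-Co2, at 1.34 (SE 0.16, adjusted p by edgeR 0.0317). These 13 transcripts come from long shared precursors and the same libraries, so they are not 13 separate results. Set against them within each library, where no scaling enters, the nuclear subunits of complex IV (Ndufa4 and Cox6c) had 2.48, 3.02, 5.63 and 3.98 counts per 1000 counts of mt-Co1, mt-Co2 and mt-Co3 in Sost-/-, by replicate number. In SostPB/- they had 3.45, 2.79, 1.79 and 2.50 counts per 1000. For complex I, Ndufb6 had 0.300, 0.422, 0.754 and 0.569 counts per 1000 counts of the 7 mt-Nd genes in Sost-/-, against 0.570, 0.361, 0.211 and 0.234 in SostPB/-. In log2 the mean ratio was lower in SostPB/- by a difference of -0.49 for complex IV (-8.12 ± 0.512 and -8.61 ± 0.393, SD, n = 4) and -0.61 for Ndufb6 (-11.02 ± 0.572 and -11.62 ± 0.656), and the groups overlapped for both. With Ndufa5 added, whose 0 enters it, the complex I difference was -0.80. It was -0.43 without SostPB/- replicate 2, and the complex IV difference was -0.27 without Sost-/- replicate 3. Nuclear rows in general also fell against these genes, with a median log2 fold change of -0.010 over all rows against 0.42 for the 13. The mitochondrial share of all counts was 59.2%, 51.6%, 49.4% and 47.4% in Sost-/-. In SostPB/- it was 54.7%, 59.2%, 64.3% and 58.8%. The ratios include this library-wide difference, so they are no result about these subunits alone. No test was made of these ratios.

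**Figure D3:**
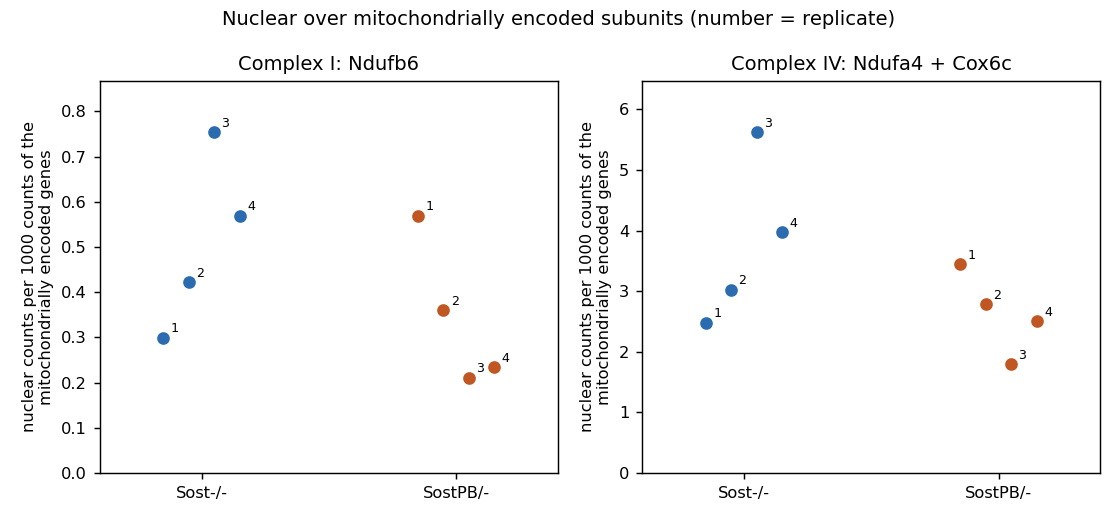
Counts of Ndufb6 (left) and of Ndufa4 and Cox6c together (right) per 1000 counts of the mitochondrially encoded genes of the same complex (vertical axis, from 0), by library. Sost-/- replicate 3 is highest at 0.754 and 5.63, and SostPB/- replicate 3 lowest at 0.211 and 1.79.

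Of other nuclear genes whose proteins work in mitochondria, 22 from a written list lay on the stretches, and edgeR called 0 of 22, with 11 log2 fold changes above 0 and 11 below and a median of -0.0016. An unadjusted p under 0.05 was found for 4, beside 6.45% of all rows and 8.24% of stretch rows. DESeq2, which called 52 of 13950 rows, called 1 of the list, the NAD carrier Slc25a51 (log2 fold change -0.91, SE 0.24, DESeq2 adjusted p = 0.0348), while limma-voom called 0. The lowest values in edgeR were those of Pdk4, which phosphorylates and slows pyruvate dehydrogenase, at -1.40 (SE 0.65), and Slc25a51 at -0.92 (SE 0.23). The highest were those of Lyrm2, a small LYR-motif protein, at 0.45 (SE 0.19), and Rida, a deaminase of reactive imines, at 0.37 (SE 0.16). Sdhaf3, an assembly factor of complex II, had 21.1 ± 4.70 and 22.6 ± 2.80 CPM (SD, n = 4), a log2 change of 0.098 (SE 0.20), and Coq3, of ubiquinone synthesis, which feeds the chain its electron carrier, 112 ± 21.9 and 86.3 ± 11.98 CPM, a log2 change of -0.37 (SE 0.18, adjusted p by edgeR 0.794). Of 10 regulators that work with Nrf1, such as Tfam and Ppargc1a, 0 lie on the stretches, and they are not analysed here.

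**Figure D4:**
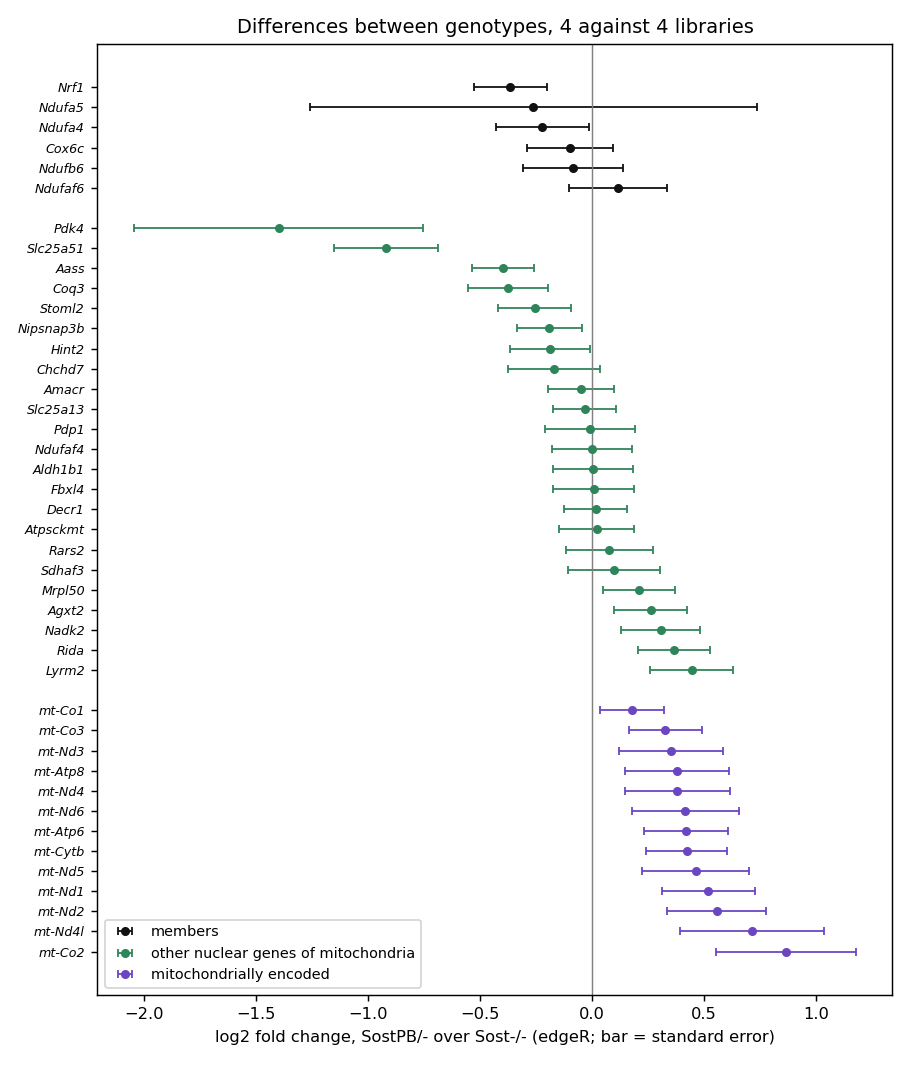
Log2 fold change of SostPB/- over Sost-/- (horizontal axis) with its standard error for the 6 genes, for 23 other nuclear genes of mitochondria (the 22 listed and Ndufaf4) and for the 13 mitochondrially encoded genes. No gene shown passed edgeR's adjusted test.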

How the data were processed

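Poly-A RNA from 8 mouse livers was sequenced, per the labels' protocols. HISAT2, StringTie, DESeq2 and the build mm10 are named in the submitters' processing notes, with no role or version. Annotation release and counting strand: not given in the sources used here. The authors deposited whole-number counts per gene (55416 rows), and, in another table with 22883 rows, a normalized signal that equals the deposited counts divided by 1 size factor per library (0.782 to 1.24). After multiplication 100% of its values were whole within 0.001. An edgeR fit of those reads was an added alternative, which called 0 rows.

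The test of the counts was that of edgeR 4.0.16 (R 4.3.3) over all rows (filterByExpr, TMM, glmQLFit and glmQLFTest, SostPB/- over Sost-/-, Benjamini-Hochberg at 0.05 over 10020 rows). The SE is the log2 fold change over the square root of F. DESeq2 1.42.0, limma 3.58.1 (voom with sample weights), other scalings, rows and filters, a block for the replicate number, and fits without each library in turn were the alternatives. Groups come from sample titles. Positions and exon lengths are from GENCODE M21 (GRCm38), matched by gene ID without version, and copies were sought with BLAST 2.17.0. The stretches, with 1439 rows, come from earlier work on these data, which found that elsewhere in the nuclear genome row names mostly did not match the counts. Members and lists were chosen with earlier results of these data known. Named genes are the members, the 2 largest rises and falls of the listed mitochondrial genes and any called, and the 3 rows most like Nrf1 and the subunit mean; 1 of these rows and 1 marker are not reported here. Sdhaf3 and Coq3 are further listed rows, chosen after their values were seen. In simulated counts with 9483 rows tested, the fit recovered 13.6% of changes of 2-fold and 48.9% of those of 4-fold, and made 1 call on an unchanged row. Changed rows were drawn from all rows, whose median dispersion, edgeR's measure of spread between libraries, was 0.124. Among the members it ran from 0.040 for Nrf1 to 0.062 for Ndufb6, apart from 1.16 for Ndufa5. The recovery rates are therefore not those of the members.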

Additional observations from a re-analysis of the deposited data

Results flagged for a closer look

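In 18 sets of 4 values (the 6 genes and 3 ratios in each group), 2 had a library far from the rest, judged by its distance to the next value as a share of the range; chance gives about 1 in 20 sets. Ndufa5 was at 0 CPM in SostPB/- replicate 2, against 131 to 156 CPM in the other 3 SostPB/- libraries. Ndufb6 was at 96.3 CPM in Sost-/- replicate 3, against 62.0 to 66.3 CPM in the other 3 Sost-/- libraries. In the whole table, 27 of 4389 rows averaging 100 counts or more had a 0 in exactly 1 library, 5 of them in SostPB/- replicate 2, and on the stretches 1 of 343 did.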

How the results depend on the processing

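Across 108 combinations of a gene and an alternative setting, 0 of the 6 genes passed under any setting, and 101 kept the direction. These include the fit of the second table's reads, which repeats the main fit for each of the 6 genes. With library totals alone Ndufaf6 turned to -0.058, Ndufa4 was at -0.42, Ndufb6 at -0.27, Cox6c at -0.28, Ndufa5 at -0.45 and Nrf1 at -0.57, where the median of all rows moved to -0.21. Leaving out 1 library at a time gave log2 fold changes from -0.49 to 0.16 for Ndufa5, from -0.25 to 0.085 for Ndufb6, from -0.020 to 0.30 for Ndufaf6, from -0.22 to 0.042 for Cox6c, from -0.33 to -0.00040 for Ndufa4 and from -0.43 to -0.30 for Nrf1. The lowest edgeR adjusted p of Nrf1 over all alternatives was 0.543, with stretch rows alone. Ndufa5 fell to -2.50 in limma-voom (adjusted p = 0.769). Calls among the listed mitochondrial genes rose from 0 to 1 in DESeq2, and those among the 13 mitochondrially encoded genes lay between 0 and 1 when a library was left out, the 1 being mt-Co2 without Sost-/- replicate 1 (log2 fold change 1.34, edgeR adjusted p = 0.0317). Over all rows edgeR called 0 to 4 rows under its alternatives and DESeq2 52. Per kilobase of coding exon the levels were 2209 CPM for Ndufa4, 906 for Cox6c, 340.5 for Ndufa5, 183 for Ndufb6, 55.2 for Ndufaf6 and 15.6 for Nrf1, and windows with the promoter letters rose from 0 to 3 with 1 mismatch allowed.

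With the replicate number as a block 0 of the 6 genes passed, and Nrf1 was at -0.36 (SE 0.19, edgeR adjusted p = 0.979) and Ndufa5 at -0.95. Libraries with the same number did not deviate together, with correlations across rows from -0.038 to 0.041, and 1 of 4 numbers matched best with its own. Whether samples with the same number also share a batch or a litter is not given in the labels, and these correlations cannot show it.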
